A study of Mus musculus with 1920 samples.

Results

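The circadian clock is a feedback loop of transcription that runs in most cells of the body. ARNTL (BMAL1) and its partner CLOCK switch on the Per and Cry genes, whose products return to block them, and the Nr1d receptors repress Arntl in a side loop. In peripheral tissues of the mouse, transcripts of Nr1d1, Nr1d2, Dbp, Tef, Ciart, Per2 and Per3 peak between the middle of the light phase and the early night, whereas Arntl, Cry1 and Nfil3 peak late in the night or near dawn. The level of the first set against the second therefore changes with the phase of a tissue, although a single ratio does not fix that phase. The intestinal epithelium is among the tissues in which the clock is known to run. The question asked here was whether single stem cells of a mouse share a phase, as far as this ratio can show.

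These 10 genes were taken by name from the raw count table of 55471 genes and were followed in every cell with at least 1000 detected genes, which was 1836 of 1920 cells. The 7 genes of the first set are called evening genes below and the other 3 opposite genes. The genes were chosen by name after their CPM per mouse in the same data had been seen to differ between animals, so their levels are described and not taken as evidence. Lgr5-high intestinal stem cells (ISCs) were sorted from the small-intestinal crypts of 3 young and 4 aged mice. All mice carried the allele B6.129P2-Lgr5tm1(cre/ERT2)Cle/J, in which GFP and a tamoxifen-inducible Cre are expressed from the Lgr5 locus, so only cells with an active reporter could be sampled. The labels name no treatment and set the groups apart by age alone, and neither the exact ages of the sequenced mice nor the hour at which each was killed is given in the sources used here. The animals were housed in alternating light and dark.

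Each cell was a separate library made by a full-length Smart-seq2 type method without molecular identifiers, and between 160 and 376 cells per mouse were kept. The reads on genes summed to between 49447464 and 134408884 per mouse, and the median per cell ranged from 211790 to 344568. Lgr5 had reads in 93.1% to 99.5% of the cells of each mouse, and among 8 lists of cell type markers the ISC list led in 1536 cells. The 384-cell sequencing lane is coded in the cell names. Young 3 filled lane E and aged 4 filled lane D, so that for these 2 mice animal and lane cannot be told apart. Young 1 shared lane B with aged 3, aged 1 shared lane A and aged 2 lane C with cells of young 2, the only mouse sequenced in 2 lanes.

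The loop is wired through short DNA elements, and stretches around those found near the members' start sites are shown because they link the members to each other. CLOCK and ARNTL bind the E-box CACGTG, DBP, TEF and NFIL3 bind the D-box TTATGTAA or TTACGTAA, and NR1D receptors bind the core TAGGTCA or TGGGTCA. Windows from 250 bases before to 50 after the start site (RefSeq, GRCm38.p6) were given for 9 of the 10 genes, all but Per2, and were searched on both strands. An E-box occurred in 7.15% of all 32851 windows, a D-box in 1.06% and a receptor core in 6.45%. The matched letters are in capitals, each stretch reads 5′ to 3′ on the strand of its gene, and a match is a description and not a site shown to be bound.
Ciart, chr3:95882247-95882364, minus strand, E-boxes that begin 116, 58 and 44 bases before the start: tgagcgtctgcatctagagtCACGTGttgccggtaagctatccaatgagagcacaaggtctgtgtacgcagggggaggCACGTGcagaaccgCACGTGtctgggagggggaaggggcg
Cry1, chr10:85185089-85185134, minus strand, E-box 60 bases before the start: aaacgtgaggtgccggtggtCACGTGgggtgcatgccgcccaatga
Tef, chr15:81802526-81802571, plus strand, E-box 127 bases before the first start: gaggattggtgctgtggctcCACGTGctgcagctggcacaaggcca
Tef, chr15:81811256-81811301, plus strand, E-box 138 bases before the second start: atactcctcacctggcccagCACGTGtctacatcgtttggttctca
Per3, chr4:151044796-151044890, minus strand, D-boxes that begin 205 and 158 bases before the start: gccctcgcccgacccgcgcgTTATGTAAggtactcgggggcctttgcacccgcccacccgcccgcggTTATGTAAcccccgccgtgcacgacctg
Nfil3, chr13:52981025-52981071, minus strand, receptor core on the other strand 12 bases before the start: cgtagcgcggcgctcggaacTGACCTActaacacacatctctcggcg
Arntl, chr7:113207530-113207559, plus strand, receptor core 30 bases after the second start: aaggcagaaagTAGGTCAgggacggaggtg
The windows of Nr1d1, Nr1d2 and Dbp held none of these letters. Of the opposite genes Arntl and Nfil3 held a receptor core and Cry1 an E-box, while the evening genes with a match held E-boxes or D-boxes.

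The repressor genes of the side loop come first. Nr1d1 encodes REV-ERBα, the heme-binding receptor that silences Arntl, Cry1 and Nfil3. Counts of each mouse were summed over its kept cells and expressed as CPM (counts scaled to a fixed total of reads on genes), and on this scale Nr1d1 stood at 33.7, 115 and 157 CPM in young 1, 2 and 3, and at 40.7, 49.0, 31.7 and 53.0 CPM in aged 1, 2, 3 and 4. Young 3 and young 2 thus lay above all 4 aged mice, while young 1 lay among them. The level in young 3 was 3.59 times the mean of the aged mice, and the highest mouse was 4.95 times the lowest. The cells of young 2 read in lane A gave 112 CPM and those in lane C 118 CPM, a gap far smaller than that between mice. The plot of CPM by mouse shows the same for each gene.

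**Figure D1:**
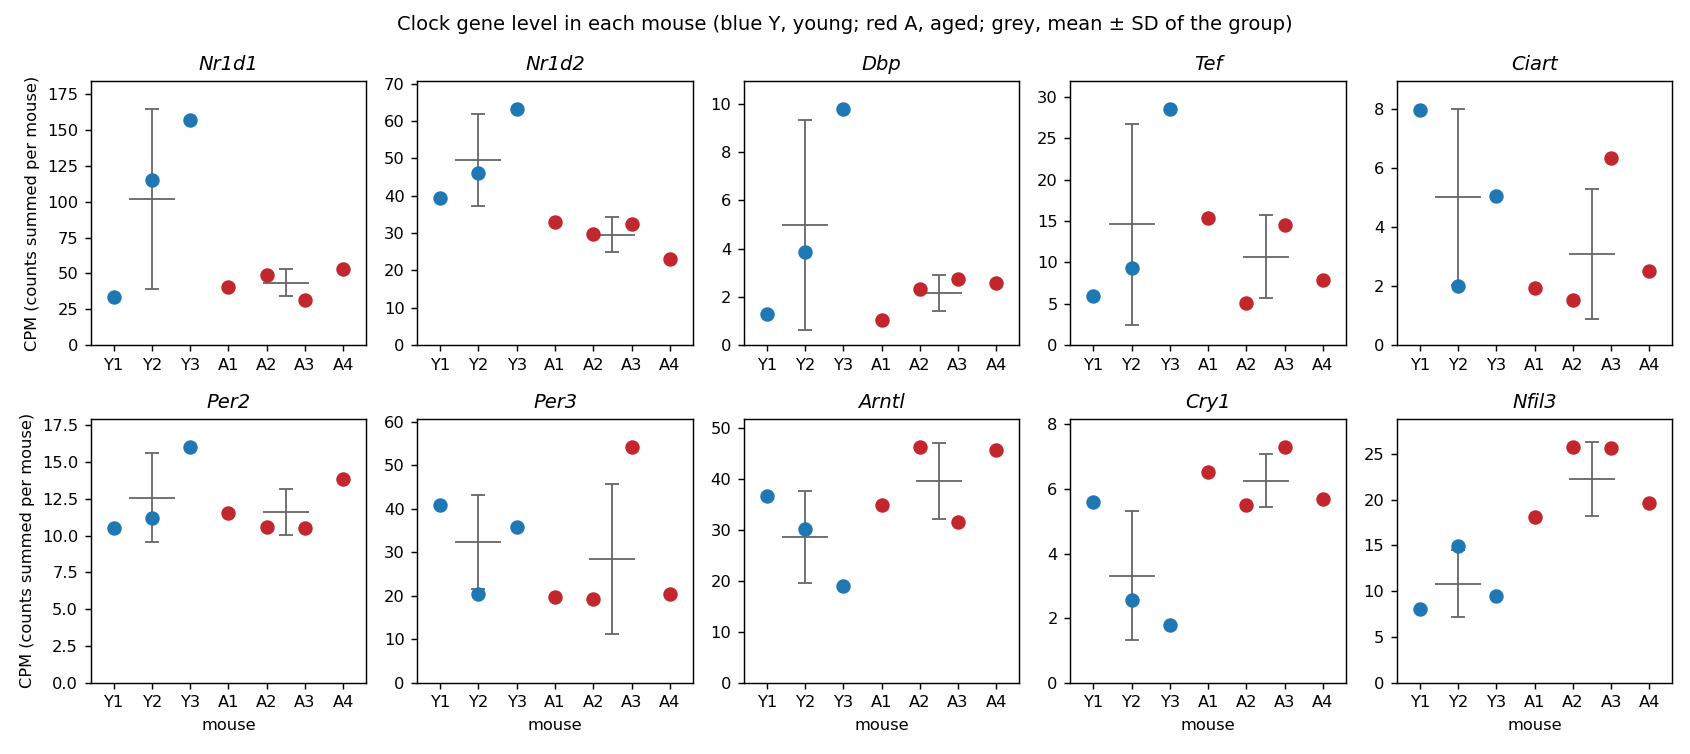
Level of the 10 clock genes in each mouse, in CPM of counts summed over the kept cells (vertical axis from 0). Blue points are young mice (Y1 to Y3), red points aged mice (A1 to A4) and grey bars the mean ± SD of the group. For Nr1d1, Y3 is at 157 CPM, Y2 at 115 CPM and the other 5 mice between 31.7 and 53.0 CPM, and Arntl is lowest in Y3 at 18.9 CPM.

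Nr1d2, which encodes the related repressor REV-ERBβ, was at 39.4, 46.1 and 63.1 CPM in young 1 to 3 and at 33.0, 29.9, 32.4 and 23.0 CPM in aged 1 to 4. Here all 3 young mice were above all 4 aged mice, a pattern that 4.09% of the 20957 genes tested also showed. In aged 3 a single cell held 35.3% of the Nr1d2 reads. With each cell given equal weight the groups of Nr1d2 also did not overlap, but by the share of cells with a read, given below, they did.

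The PAR-bZIP factors carry the clock's output through D-boxes. Dbp was at 1.27, 3.85 and 9.78 CPM in young 1 to 3 and at 1.05, 2.31, 2.72 and 2.58 CPM in aged 1 to 4. Young 3 was the highest, at 9.28 times the lowest mouse, young 2 came next, and young 1 was below 3 of the aged mice. Tef stood at 5.93, 9.31 and 28.5 CPM in the young mice and at 15.4, 5.04, 14.5 and 7.91 CPM in the aged mice, with 49.2% of the reads of aged 1 in a single cell. Again young 3 was alone at the top, and the other 6 mice of both ages were interleaved. Hlf, the remaining gene of this family, was near the limit of detection at 0.19 CPM on average, and its highest mouse was also young 3.

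Ciart (CHRONO), a repressor of CLOCK and ARNTL, was at 7.99, 2.02 and 5.05 CPM in the young mice and at 1.93, 1.54, 6.34 and 2.53 CPM in the aged mice. The order did not follow the other evening genes, and 85.3% of the Ciart reads of young 1 came from a single cell. Per3 was at 40.9, 20.3 and 35.9 CPM in young 1 to 3 and at 19.7, 19.3, 54.2 and 20.5 CPM in aged 1 to 4. Its highest mice were aged 3 and young 1, the 2 mice of lane B, and young 3 was the third. Per2, a core repressor whose level also answers to serum and temperature signals, ranged only from 10.5 to 16.0 CPM. Young 3 was the highest for Per2 too, but the mice differed by no more than 1.53 times.

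The opposite genes ran the other way. Arntl, the positive limb of the loop, was at 36.7, 30.3 and 18.9 CPM in young 1 to 3 and at 34.9, 46.3, 31.5 and 45.8 CPM in aged 1 to 4. Young 3 was the lowest and young 2 the next, and young 1 lay among the aged mice. Cry1, which closes the loop as a repressor, was at 5.58, 2.57 and 1.79 CPM in the young and at 6.53, 5.50, 7.30 and 5.69 CPM in the aged mice, and gave the same order at its lower end. In aged 1 a single cell held 41.0% of the Cry1 reads. Nfil3, the D-box repressor that opposes DBP and TEF, was at 8.05, 15.0 and 9.44 CPM in the young and at 18.1, 25.8, 25.6 and 19.6 CPM in the aged mice. For Nfil3 all 4 aged mice were above all 3 young mice, as in 1.82% of genes tested, and young 1 was the lowest although it sided with the aged mice for Nr1d1 and Arntl.

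**Figure D2:**
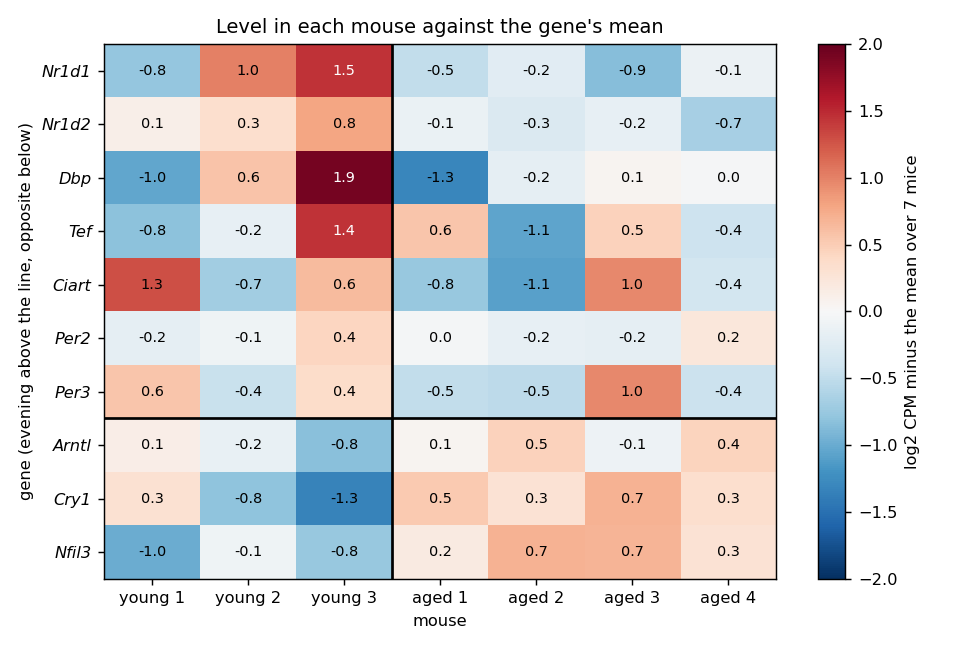
Log2 CPM of each clock gene (rows, evening genes above the line and opposite genes below) in each mouse (columns), minus the gene's mean over the 7 mice. Red is above the mean and blue below, and young 3 is the only mouse in which all 7 evening genes are above their mean and all 3 opposite genes below it.

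The mean log2 CPM of the evening genes minus that of the opposite genes, a clock index on the log2 scale, was 0.01, 0.37 and 1.93 in young 1 to 3 and -0.69, -1.03, -0.30 and -0.66 in aged 1 to 4. The mice therefore lay in an order from young 3 over young 2 and young 1 to the aged mice, with a step of more than 1 log2 unit between young 3 and the next. As the hour of death is not given, age and time of day cannot be told apart in this order. Per length of transcript, in CPM per kilobase averaged over mice, Nr1d1 was the most abundant member at 22.3, followed by Nfil3 at 8.57, Nr1d2 at 7.05 and Arntl at 4.64. The other members were between 1.13 for Dbp and 3.13 for Per3.

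The share of cells with a read was taken after depth was made equal. With each cell thinned to 100000 reads, which left 1732 cells, Nr1d1 reads were found in 92.5% of the cells of young 3 and 88.4% of those of young 2. In young 1 the share was 56.8%, with an exact 95% interval of 48.4% to 65.0%, and in the aged mice it was between 61.4% and 74.9%. The shares without thinning were 69.4% in young 1, 93.2% in young 2, 95.7% in young 3 and 74.1% to 82.3% in the aged mice. Arntl reads were found after thinning in 46.2% of the cells of young 3, and in 82.4% of those of aged 4. Dbp was found in 30.6% of the cells of young 3 and in 7.23% to 16.2% of those of the other mice. The age groups of Nr1d2 and Nfil3, which were apart by CPM, overlapped by detection. Nr1d2 was found in 58.9% of the cells of young 1, below aged 1 (67.5%), aged 2 (65.9%) and aged 3 (60.2%). Nfil3 was found in 38.6% of the cells of young 2 and in 36.7% of those of aged 1. For Nr1d1, Arntl and Dbp young 3 was at the same end of the order by detection as by CPM, whereas Ciart was found in the smallest share of cells (4.11%) in young 1, where its CPM was the highest. Intervals cover counting error only.

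For each cell with at least 20 reads on the 10 clock genes, the evening share was computed as the percentage of those reads on evening genes. This could be done in 1562 cells, with between 47 and 99 such reads per cell at the median of a mouse. The median evening share was 73.3% in young 1 (quartiles 53.8% and 90.0%), 83.0% in young 2 (68.1% and 94.3%) and 94.3% in young 3 (83.9% and 100%). In the aged mice it was 70.6% in aged 1 (52.0% and 86.6%), 62.5% in aged 2 (44.2% and 75.3%), 62.5% in aged 3 (45.0% and 83.6%) and 62.3% in aged 4 (46.4% and 77.0%). The lower quartile of young 3 was above the median of each other mouse, though only just above that of young 2 (83.9% against 83.0%).

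**Figure D3:**
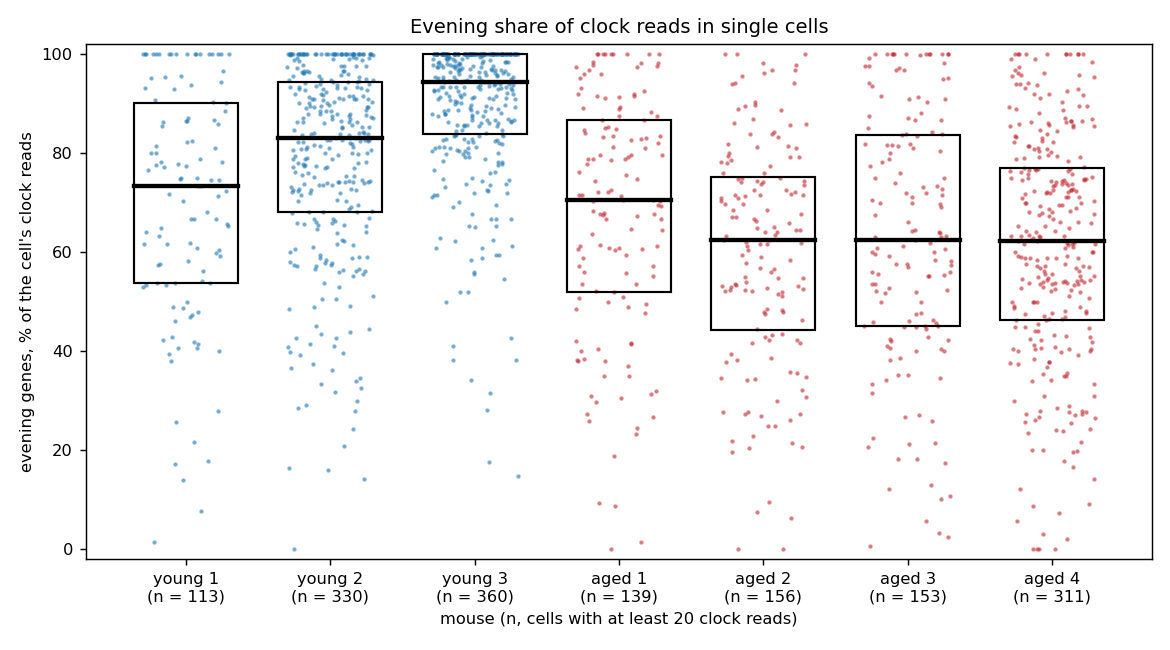
Evening genes as a percentage of the clock reads of single cells (vertical axis), by mouse (horizontal axis, with the number of cells that had at least 20 clock reads). Points are cells, boxes the quartiles and thick lines the medians, which are 94.3% in young 3, 83.0% in young 2, and between 62.3% and 73.3% in the other 5 mice.

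The mouse accounted for 24.8% of the variance of the evening share over cells, and the rest lay between cells of the same mouse. Of the cells of young 3, 88.3% lay above 72.6%, the mean of the 7 medians, against 70.0% in young 2, 51.3% in young 1 and between 30.8% and 45.3% in the aged mice. A cell of young 3 drawn at random had a higher share than a cell of aged 2 in 87.4% of pairs and than a cell of young 2 in 67.9%. Between aged 3 and aged 4 the figure was 51.8%, and between young 1 and aged 1 it was 52.8%, so the cells of these pairs were hardly separated. Cells with reads on evening genes alone made up 29.4% of young 3 and 1.92% to 15.9% of the other mice. The SD over the cells of a mouse was 14.6 percentage points in young 3 and 20.0 to 25.9 elsewhere, which includes the sampling of few reads. The share cannot exceed 100%, where the upper quartile of young 3 lay. Young 3 also had the most clock reads per cell, 99 at the median against 47 to 75 elsewhere. Its smaller SD therefore cannot be read as a closer phase.

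Averaged over mice the median share was 83.5% in the young and 64.5% in the aged, a difference of -19.1 percentage points against a pooled SD of 7.35. Without young 3 the difference was -13.7 points, and the share of variance between mice was 11.3%. With cells thinned to 100000 reads the difference was -14.4 points, but young 1 (66.9%) then lay below aged 1, aged 3 and aged 4. Within lanes and without thinning, aged 1 was 11.9 points below young 2 (-11.9), aged 3 was below young 1 (-10.8) and aged 2 was below young 2 (-21.3). Lane B was mixed by gene, with aged 3 over young 1 at 3.18 for Nfil3, 1.31 for Cry1 and 0.86 for Arntl. Among evening genes this ratio was 2.44 for Tef, 2.14 for Dbp, 1.33 for Per3 and 1.00 for Per2. It was 0.94 for Nr1d1, 0.82 for Nr1d2 and 0.79 for Ciart. With reads summed per mouse, the evening share was 73.5% in young 1 and 70.3% in aged 3. The cells of young 2 had a median of 82.5% in lane A and 83.8% in lane C, so that its cells kept their position when read in separate lanes.

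The order of the mice was much the same among stem-like cells and among dividing cells. In ISC-led cells alone the medians were 73.3%, 83.7% and 94.4% in young 1 to 3 and 60.0% to 71.4% in the aged mice. In cells with reads of both Mki67 and Top2a, markers of dividing cells, they were 72.1%, 81.7% and 92.6% in the young and 59.5% to 67.8% in the aged. Cells with reads of neither were few (5 to 31 per mouse) and had higher medians in every mouse, from 66.0% in aged 3 to 100% in young 3, and among them aged 2 (90.2%) was above young 1 (88.6%). The summed level of 12 proliferation genes was lowest in young 3 at 1754 CPM against 2479 to 3919 CPM in the other mice, and that of 10 dissociation-stress genes was also lowest there, at 1188 CPM against 1671 to 2588 CPM. The part of these levels in the clock values was not tested beyond the split by Mki67 and Top2a.

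The same question was then put to each gene. The variance of log2(CPM + 1) over the 1836 cells was split into a part between mice and a part between cells of a mouse. The members were chosen after their levels had been seen to differ between mice. Their place among all genes is therefore a description and not evidence. For Nr1d1 21.8% lay between mice, a value above that of 99.9% of the 14765 genes with reads in at least 10% of cells. Nr1d2 followed with 9.83%, Arntl with 8.13%, Tef with 8.08%, Nfil3 with 7.87%, Dbp with 7.17% and Cry1 with 5.51%. These 7 were above 3.83%, the value that 90% of all genes did not reach, whereas Per3 (2.97%), Ciart (0.10%) and Per2 (0.01%) were not. The median of the 10 members was 7.52% beside 1.05% over all genes, and without young 3 it was 2.06% beside 1.00%, with 4 members above the 90% mark. The rise of the members over other genes rested largely on young 3.

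**Figure D4:**
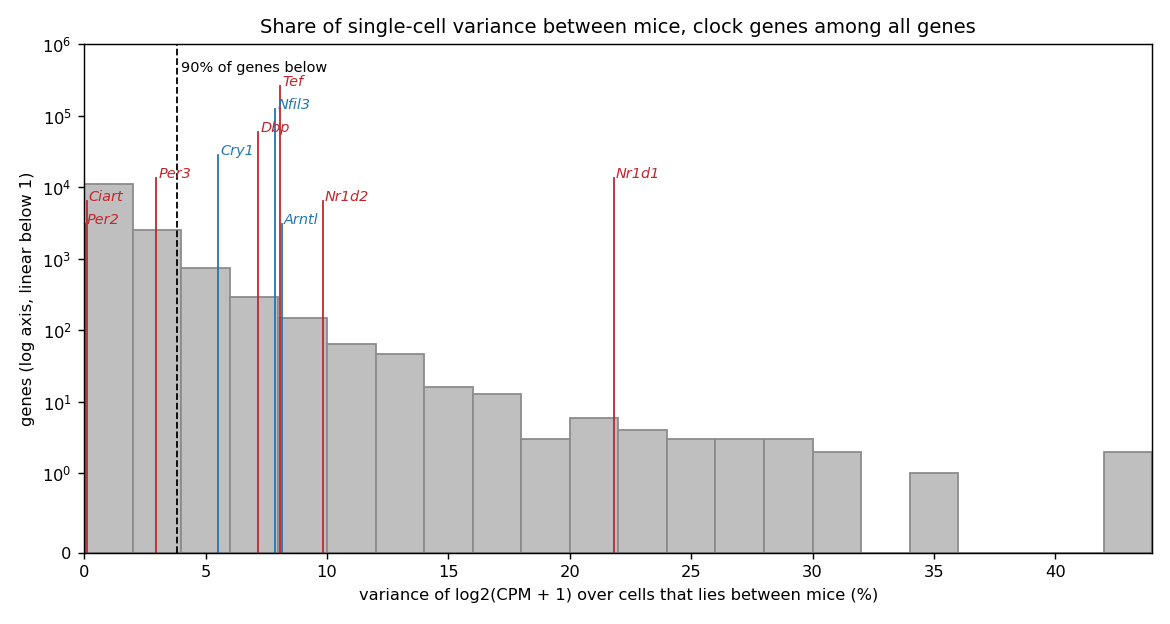
Share of the single-cell variance of log2(CPM + 1) that lies between mice (horizontal axis, in percent) for 14765 genes (grey bars, 2-point bins, vertical log axis). Lines mark evening genes (red) and opposite genes (blue), and the dashed line is the 3.83% that 90% of genes do not reach. Nr1d1 is at 21.8%, and 7 of the 10 clock genes are right of the dashed line.

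Within a mouse the members were only weakly tied from cell to cell. The mean of each mouse was subtracted first. The median Pearson r of log2(CPM + 1) over cells was then 0.10 for the 21 pairs of evening genes. It was 0.11 for the 3 pairs of opposite genes and 0.04 for the 21 pairs of an evening and an opposite gene. Over all pairs of genes the median was 0.07. In cells thinned to 100000 reads the medians of the evening, opposite and mixed pairs were 0.08, 0.08 and 0.03. The strongest evening pair, Dbp with Tef, reached 0.17. The correlation of Nr1d1 with Nr1d2 was 0.15 to 0.27 in 6 mice and -0.10 in young 1. Between Nr1d1 and its target Arntl r was positive or near 0 in every mouse, from -0.002 in young 2 to 0.20 in aged 2. All cells share library preparation and their depth differs, so correlations this small in sparse counts are given as a description.

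Age was tested over the mice, with the 7 sums per mouse as samples. In edgeR's quasi-likelihood test none of the 10 members passed an adjusted p of 0.05, as none of 20957 genes did (0%). At an unadjusted p under 0.05 edgeR gave 4 of the 10 members and 1098 genes in all (5.24%). The members were chosen after their levels had been seen to differ between mice. Their count and their p-values in each test are therefore a description and not evidence. DESeq2 called 177 genes (0.848%), of which Nfil3 was the only member, and limma voom called 2 genes (0.00954%) and no member. Nfil3 was higher in the aged mice by 1.10 on the log2 scale (SE 0.25, n = 3 and 4), with an adjusted p of 0.380 in edgeR and of 0.00689 in DESeq2. In edgeR the log2 change of Nr1d2 was -0.69 (SE 0.20, adjusted p = 0.694) and that of Nr1d1 -1.16 (SE 0.41, adjusted p = 0.818). The change of Cry1 was 0.97 (SE 0.40, adjusted p = 0.910). The remaining changes ran from -1.14 for Dbp to 0.52 for Arntl, each with an adjusted p of 0.977 or more. Without young 3 the log2 change was -0.68 for Nr1d1, -0.15 for Dbp and 1.03 for Nfil3, and that of Tef turned to 0.56.

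Several other genes of the clock varied little between mice. Clock had 0.78% of its variance between mice, Bhlhe40 0.39% and Per1 2.38%. Npas2, a CLOCK paralogue, was highest in aged 4 (20.2 CPM) and aged 2 (19.2 CPM) and stood at 6.71 to 17.7 CPM elsewhere. Of 9 core genes outside the 10 members, 7 could be tested for age, of 13 modifiers such as casein kinases 13, and of 10 output genes 10, and edgeR called none of them. Their median log2 changes were 0.04, -0.03 and -0.06, beside 0.01 over all genes, and 1 output gene, Ppard, had an unadjusted p under 0.05 in edgeR (log2 change -0.51, adjusted p = 0.879). The 6 glucocorticoid-responsive genes, a sign of the daily hormone rhythm, summed to 146 to 361 CPM in the aged and 180 to 236 CPM in the young mice. The order of this sum was not that of the clock index. The sum includes Per1 and joins unlike genes, whose highest mouse was from 1.72 to 93.9 times the lowest. The part of the hormone in the clock values was not tested.

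Among 9555 genes with a mean of at least 10 CPM, those whose log2 CPM over the 7 mice ran most closely with the clock index were Pabpn1 (r = 0.94), Atp8b1 (0.93), Snapc3 (0.92), Gm14798 (0.91) and Tcf4 (0.90). Their span was small. Atp8b1 reached 348 CPM in young 3 and 268 CPM in aged 2. The genes that ran most closely against it included 4 alpha-defensins of Paneth cells, Defa34 (r = -0.99), Defa5 (-0.96), Defa35 (-0.96) and Defa21 (-0.95), besides Aldh9a1 (-0.95). Defa34 was at 137, 84.6 and 21.6 CPM in young 1 to 3 and at 205, 244, 141 and 212 CPM in aged 1 to 4. These are near-identical genes whose reads can be split between copies. The 6 Paneth markers, all detected, summed to 6828 CPM in young 3, 8991 CPM in young 2 and 22743 CPM in young 1, and to between 10000 and 24313 CPM in the aged mice. Cells led by Paneth markers were 2.66% to 8.13% of the cells of young and 7.94% to 15.6% of those of aged mice. Young 3 and young 2, the mice with the highest clock index, thus had the lowest sums, but young 1, the next by clock index, had the highest of the young mice. The ISC list scored highest in ISC-led cells, but these can still hold Paneth reads. The part of Paneth reads in the clock values was not tested. The 8 enterocyte markers, all detected, summed to 773 to 1031 CPM in the young and 791 to 2289 CPM in the aged mice. The part of enterocyte reads in the clock values was not tested either. Over single cells within a mouse, the genes most alike to the evening mean were Txnip (r = 0.35), Myo7b (0.33), Eef2 (0.31), Hnf4a (0.31) and Fblim1 (0.31), all with reads in at least 94.8% of cells.

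Some members share bases with other genes, and whether the authors' counting used strand is not given in the sources used here. Nr1d1 overlaps Thra on the other strand (34.7 to 58.5 CPM), Dbp overlaps Sphk2 (39.6 to 75.9 CPM) and Per3 overlaps Camta1 on its own strand (10.7 to 36.5 CPM). Ciart overlaps C920021L13Rik on the other strand (1.16 to 6.06 CPM), a level like that of Ciart itself. Arntl overlaps Gm45355 (0.26 to 1.78 CPM) and Tef overlaps Gm17597 (at most 0.33 CPM), each on the other strand. Nr1d2, Per2, Cry1 and Nfil3 overlap no annotated gene.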

How the data were processed

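Raw read counts per gene and cell were deposited by the authors without normalization, after alignment to GRCm38 with HISAT2 and quality checks with Picard. The submitters' processing notes also list HTSeq, with the annotation and strand setting not given in the sources used here. Symbols and coordinates are from GENCODE M21 (55230 of 55471 identifiers matched). The members and gene lists were chosen with earlier results of these data known. Mouse and lane were read from the cell labels. Doublets were not called.

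A cell was kept if it had 1000 or more detected genes, and the counts of a mouse's kept cells were added up to give 1 sample. The quasi-likelihood test of edgeR 4.0.16 (TMM, its filter on low counts, Benjamini-Hochberg) was run on all genes under R 4.3.3. Alternatives used DESeq2 1.42.0 or limma 3.58.1. The scripts were tested on simulated data. Variance components were computed per gene on log2(CPM + 1), where CPM is a cell's count scaled to its reads on genes. Thinning drew 100000 reads per cell without replacement, which dropped 36 cells of young and 68 of aged mice. Reads without molecular identifiers are not independent molecules, so intervals cover counting error only. The genes named are the 10 members, core clock genes from a list of 9 (1 of them is not reported here), the 5 highest and 5 lowest in likeness to the clock index over mice, and the 5 highest in likeness over cells. Cell-level values came from Python 3.11.15 (numpy 2.4.6, pandas 2.3.3, scipy 1.17.1).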

Additional observations from a re-analysis of the deposited data

Results flagged for a closer look

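In 21 sets of values over the 4 aged mice (the CPM of 19 clock genes, the median evening share and the clock index), a single mouse stood apart by Dixon's 95% criterion in 2, where chance gives about 1 in 20. Per3 was at 54.2 CPM in aged 3, against 19.3 to 20.5 CPM in the other aged mice. Young 1, which shared its lane, was at 40.9 CPM. The median evening share was 70.6% in aged 1, against 62.3% to 62.5% in the other aged mice. The 3 young mice were too few for this criterion.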

How the results depend on the processing

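The number of genes past an adjusted p of 0.05 was 0 in edgeR and 177 with DESeq2, 2 with limma voom, 22 with no filter on low counts, 11 with thinned cells, 18 with cells weighted equally in limma, 1 with a lane block, and 0 to 8 when a mouse was left out, 8 of them without aged 1. Members past it were 1 with DESeq2 (Nfil3) and 0 otherwise, whichever mouse was left out. The lane block compared ages within lanes A, B and C only, as set out below. Replicate numbers did not pair the mice (correlations of deviations -0.11, 0.18 and -0.22), and the fit with the replicate block called 0 genes and 0 members.

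Over 18 alternatives for each member, 169 of 180 log2 changes kept direction and call and 10 turned sign, all in Tef, Per2 and Per3. The lane block compared ages only within lanes A, B and C, which held mice of both ages. Young 3 and aged 4 were each alone in a lane and added nothing to its age change. Young 2 entered in lane A and again in lane C, as separate samples. Tef was 0.44 with this lane block and -0.77 to 0.56 when a mouse was left out (0.56 without young 3). Per2 was 0.080 with thinned cells, 0.0049 with equal weights, 0.041 with a lane block and -0.17 to 0.17 when a mouse was left out (0.17 without young 3). Per3 was 0.15 with a lane block and -0.66 to 0.085 when a mouse was left out (above 0 without young 1, aged 1 or aged 2). The causes were not tested.

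The difference of the evening share between the age groups kept its sign throughout. It was -10.8 points within lane B, and from -24.2 to -13.7 when a mouse was left out. With thinned cells it was -14.4 points, but the order of single mice changed. Young 1 (66.9%) then lay below aged 1 (73.0%), aged 4 (69.4%) and aged 3 (68.0%), and above aged 2 (66.1%). Of the variance of the evening share, 16.7% lay between mice without Arntl reads, 16.2% in cells without Mki67 and Top2a reads, and 11.3% to 28.0% when a mouse was left out. The median share per gene over the members was then 2.06% to 9.53%, lowest without young 3.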
